A study of Mus musculus with 4 samples.

Results

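The genes described here are 10 mouse genes for heat shock proteins and chaperones. They are Hspd1, Hspe1, Hspa9, Hsp90ab1, Hsp90aa1, Hspa8, Hspa5, Hspa1a, Hspa1b and Hsph1. They were taken by gene name from GENCODE annotation vM1 of the mouse genome build mm9, where they are 10 of 22367 protein-coding genes. The question was how much acetylation of histone H3 at lysine 9 (H3K9ac) and at lysine 14 (H3K14ac) lay at their transcription start sites (TSSs) and along their gene bodies.

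The data are ChIP-seq libraries from mouse embryonic stem (mES) cells, in which antibodies pull down chromatin that carries a mark and the recovered DNA is sequenced. There are 4 libraries, namely H3K9ac with the rabbit polyclonal antibody ab4441, H3K14ac with the monoclonal antibody 13HH3, H3K14ac with another antibody, 7G8, and input DNA that was not immunoprecipitated. The labels give the E14 line of strain 129P2/OlaHsd with no treatment for these libraries, whereas the methods of the study speak of wild type cells derived from blastocysts, which were grown on feeder cells and then without them. Each antibody and the input have 1 library, so no difference was tested between conditions or replicates, and every interval below covers counting error only.

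Chaperones bind unfolded or partly folded proteins and help them to fold, to reach their place in the cell or to be taken apart. HSP70 proteins hold short exposed stretches of a client, HSP90 proteins act on clients that are nearly folded, and the HSP60 and HSP10 proteins of mitochondria form a closed chamber. Several of these genes are expressed in all growing cells, while others, such as Hspa1a and Hspa1b, are classical targets of heat shock factor 1, which binds repeats of a short motif called the heat shock element. Acetylation of H3K9 and H3K14 is found at the nucleosomes that flank active start sites, and genes of this kind usually start in CpG-rich DNA.

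The heat shock element was searched as neighbouring units of the letters GAA and TTC, in the form GAANNTTC or TTCNNGAA for 2 units, from 250 bases before to 50 bases after each TSS on mm9, on both strands. With 2 units it was present at 7 of the 10 genes, against 14% of all 22362 promoters that could be searched. With 3 units in a row it was present at 4 genes, against 0.487% of all promoters, and those 4 were Hspd1, Hspe1, Hsp90aa1 and Hsph1. A match of letters is a description of the sequence and not a measured binding site. The stretches below, 5′ to 3′ on the strand of the named gene, hold these runs, with the matched units in capitals. The run of the first line lies between the start sites of Hspe1 and Hspd1, which point away from each other, and is therefore counted for both genes. It is at chr1:55144897-55144926 on the plus strand, the second line is at chr12:111934582-111934611 and the third at chr5:150438856-150438882, both on the minus strand. By the annotation the first stretch lies in the 5′ UTR of a longer Hspd1 transcript, the second crosses the TSS into the first exon of Hsp90aa1, and the third lies in first exons of other Hsph1 transcripts.
Hspe1 and Hspd1: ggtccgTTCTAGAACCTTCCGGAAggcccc
Hsp90aa1: tcTTCCGGAAGGTTCcggaggcTTCTGGAA
Hsph1: ctgcagaTTCTGGAAAGTTCtcctcag

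The promoters of Hspa1a and Hspa1b are shown because the genes are near-identical copies. This limits what reads of 36 bases can tell about them, mostly downstream of the TSS. The lines give the 160 bases before each TSS, chr17:35109070-35109229 for Hspa1a and chr17:35096184-35096343 for Hspa1b, both on the minus strand and with no annotated exon of the 10 genes, although an exon of Gm20481, a predicted gene on the opposite strand, reaches into the last bases of the Hspa1a stretch. Capitals mark a heat shock element of 2 units and a CCAAT box on the opposite strand (ATTGG). A run of 126 bases is the same in both.
Hspa1a: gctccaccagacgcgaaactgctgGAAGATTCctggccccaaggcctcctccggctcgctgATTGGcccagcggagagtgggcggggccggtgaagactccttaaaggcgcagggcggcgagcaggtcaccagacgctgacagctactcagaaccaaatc
Hspa1b: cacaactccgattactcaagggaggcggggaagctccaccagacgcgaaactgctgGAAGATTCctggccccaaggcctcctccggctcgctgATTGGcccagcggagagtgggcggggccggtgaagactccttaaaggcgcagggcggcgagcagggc

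Hspa5 encodes BiP, the HSP70 of the endoplasmic reticulum (ER), and its promoter was the only one of the 10 that held an ER stress element, that is CCAAT followed after 9 bases by CCACG, against 0.116% of all promoters. The line gives the 120 bases before its TSS at chr2:34627492-34627611 on the plus strand, with both CCAAT boxes of this stretch and the CCACG in capitals. An annotated transcript of Hspa5 that does not code for protein starts 2 bases before the first base shown, so the stretch lies in its first exon.
Hspa5: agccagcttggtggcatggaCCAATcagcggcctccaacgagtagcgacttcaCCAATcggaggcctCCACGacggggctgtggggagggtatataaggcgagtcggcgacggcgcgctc

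The ChIP-qPCR primers of the study for Hspd1 were placed by their sequences at chr1:55144286-55144421, which is 447 to 582 bases downstream of the Hspd1 TSS and overlaps no annotated exon of the 10 genes. The amplicon of 136 bases is printed on the minus strand, the strand of Hspd1, with the primer sites in capitals.
Hspd1 amplicon: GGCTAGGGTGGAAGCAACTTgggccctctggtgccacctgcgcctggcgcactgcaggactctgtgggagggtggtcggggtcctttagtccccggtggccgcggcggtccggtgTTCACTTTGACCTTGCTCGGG

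The libraries held 19313142 to 23837354 tags (mapped reads) on chromosomes 1 to 19, X and Y, after 738619 repeated tags of the 13HH3 library (3.3%) were counted once. Tags were counted within 2 kb on each side of a TSS and expressed per 10000000 tags of the library (normalised tag count), and ratios over input are given on the log2 scale with an exact 95% interval. A scaling by the library total understates ratios over input where peaks take many tags, as tags outside peaks were 0.826 times input for H3K9ac, 0.929 times for 13HH3 and 0.951 times for 7G8. Scaling by those tags would raise the log2 ratios of all genes alike, by 0.28, 0.11 and 0.07. Outside peaks this ratio also differed between chromosomes, and on chromosome 17, which carries Hspa1a, Hspa1b and Hsp90ab1, it was 0.656, 0.707 and 0.69. Values scaled by the tags outside peaks of the same chromosome, an alternative chosen after the data were seen, are therefore given beside some results. For Hsp90ab1, Hspa1a and Hspa1b they stand beside the ratios over input within 2 kb of the TSS. On chromosome 17 this scaling adds 0.61, 0.50 and 0.53 to the log2 ratios over input of H3K9ac, 13HH3 and 7G8. Where no such value is printed, the library total was used. As a check of the cell type, 5 of 6 ES cell markers reached 2-fold over input for H3K9ac, with only Esrrb below it (log2 0.76), and 1 of 6 fibroblast markers did (Col1a1, log2 1.01), against 57.4% of all genes. An H3K9ac peak was called at 6 of the 6 ES cell markers and at 4 of the 6 fibroblast markers, against 65.1% of all genes, and the part of feeder cells in the values was not tested.

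All 10 genes reached 2-fold over input for H3K9ac, as did 57.4% of the genes with at least 10 tags. For H3K14ac, 7 of 10 reached it with 13HH3, against 16.6% of genes, and 9 of 10 with 7G8, against 16.8%. With 1 kb on each side the 7G8 count was 8, a window for which the share of all genes was not computed. The median log2 ratio of the 10 genes was 3.46 for H3K9ac, 1.63 for 13HH3 and 1.51 for 7G8, whereas the medians of all genes were 1.31, 0.35 and 0.35. The genes below 2-fold were Hspa1a, Hspa1b and Hsph1 with 13HH3, and Hsph1 with 7G8. Hspd1 and Hspe1 start 108 bases apart and share most of the tags in their windows, so they are not separate observations.

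**Figure D1:**
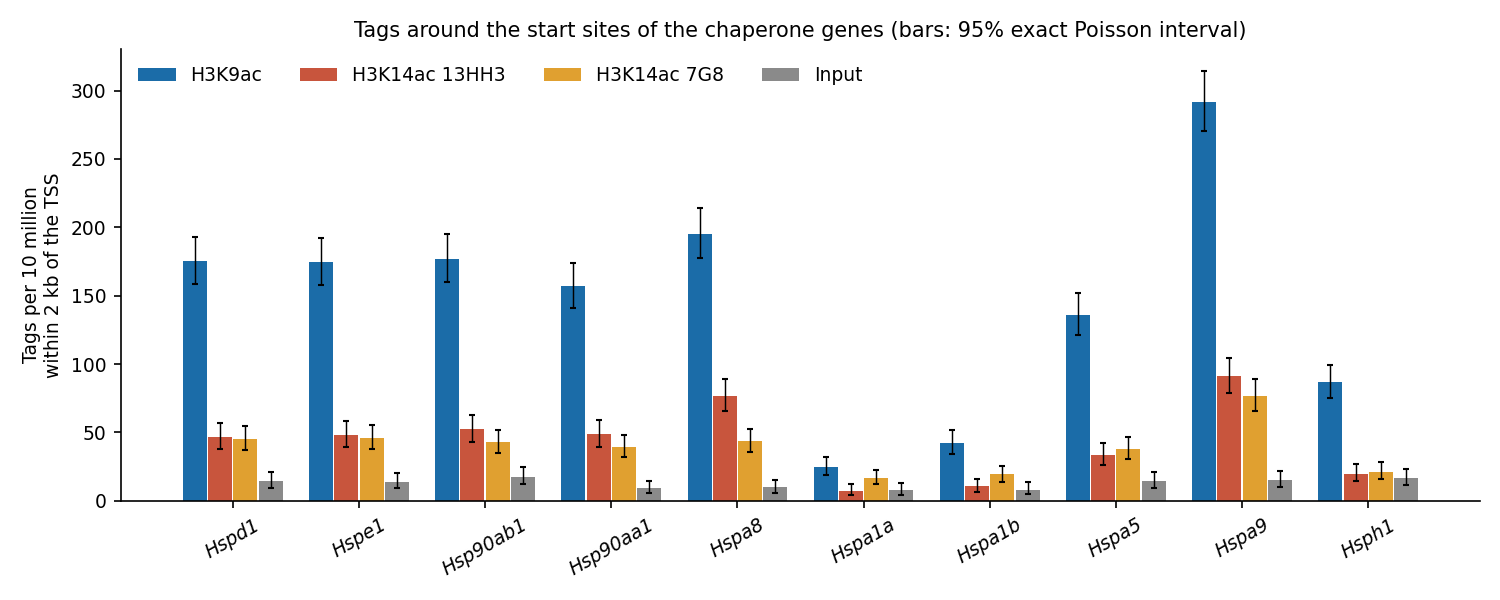
Normalised tag count (tags per 10000000) within 2 kb of the TSS (y axis) for the 10 genes in the 4 libraries, with bars at the value and lines for the exact 95% Poisson interval. H3K9ac stands above both H3K14ac libraries at each gene, from a normalised count of 25.0 at Hspa1a to 292 at Hspa9, and input stays between 7.77 and 17.6.

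**Figure D2:**
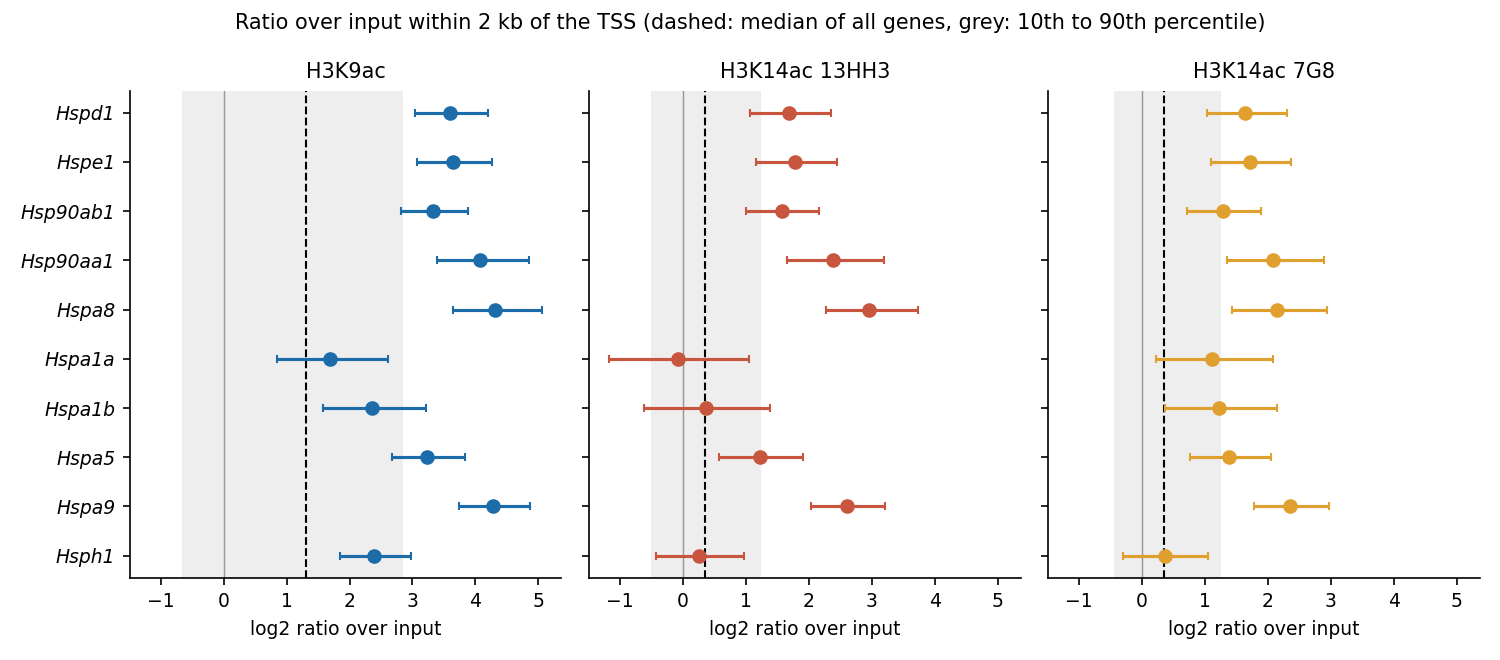
Log2 ratio over input within 2 kb of the TSS (x axis) for each gene, 1 panel per ChIP library, with exact 95% intervals, the median of all genes as a dashed line and the 10th to 90th percentile of all genes in grey. For 13HH3 the intervals of Hspa1a, Hspa1b and Hsph1 include 0, and the other 7 lie above it.

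Hspd1 and Hspe1 encode HSP60 and its lid HSP10, the chaperonin of the mitochondrial matrix. Hspd1 (chromosome 1, 55134679 to 55145087, minus strand) held 406 tags for H3K9ac, 101 for 13HH3, 108 for 7G8 and 28 for input within 2 kb of its TSS. Hspe1 (chromosome 1, 55144976 to 55148151, plus strand) held 404, 104, 109 and 27 tags in the same order. At both genes H3K9ac was the highest library and both H3K14ac libraries lay close to each other above input. The log2 ratios at Hspd1 were 3.59 (3.04 to 4.20) for H3K9ac, 1.69 (1.07 to 2.35) for 13HH3 and 1.64 (1.03 to 2.30) for 7G8, and the H3K9ac ratio was higher than that of 98.2% of genes. In the 1 kb around the amplicon printed above there were 161 tags for H3K9ac, 50 for 13HH3, 34 for 7G8 and 8 for input. In this smaller window H3K9ac reached a log2 ratio of 4.07 (3.05 to 5.30), 13HH3 one of 2.48 (1.39 to 3.77) and 7G8 one of 1.78 (0.65 to 3.11).

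Hspa9 encodes mortalin, the HSP70 of the mitochondrial matrix, which also drives the import of proteins into it. Its TSS (chromosome 18, 35114011, minus strand) had more tags than that of any of the other 9 genes in each ChIP library, with 676 for H3K9ac, 197 for 13HH3 and 183 for 7G8, while input had 29. H3K9ac reached a log2 ratio of 4.28 (3.74 to 4.87), 13HH3 one of 2.60 (2.03 to 3.22) and 7G8 one of 2.35 (1.78 to 2.97). Each of these 3 ratios was higher than that of over 99% of genes.

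Hsp90ab1 and Hsp90aa1 encode the cytosolic HSP90 proteins, of which the first is mostly constitutive and the other more inducible by heat. Hsp90ab1 (chromosome 17, 45704724 to 45710220, minus strand) held 410 tags for H3K9ac, 113 for 13HH3, 102 for 7G8 and 34 for input. Its log2 ratios were 3.33 (2.82 to 3.88), 1.57 (1.01 to 2.17) and 1.28 (0.71 to 1.89). Scaled by tags outside peaks on chromosome 17 they were 3.94, 2.07 and 1.82. The only 7G8 peak in this window lay upstream, from -1630 to -831 bases relative to the TSS.

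Hsp90aa1 (chromosome 12, minus strand) is annotated with start sites 6333 bases apart. The start of its longest coding sequence, at 111934605, held 364 tags for H3K9ac, 105 for 13HH3, 94 for 7G8 and 18 for input, with log2 ratios of 4.07 (3.39 to 4.85), 2.38 (1.65 to 3.19) and 2.08 (1.34 to 2.90). The upstream start, at 111940938, held 350, 168, 132 and 34 tags, with log2 ratios of 3.10 (2.59 to 3.65), 2.14 (1.60 to 2.72) and 1.65 (1.10 to 2.24). Both starts were thus above input in each ChIP library, and the upstream start had more tags of 13HH3, 7G8 and input. A single H3K9ac peak of 11100 bases covered both, and it was wider than 99.98% of all H3K9ac peaks.

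Hspa8 encodes HSC70, the constitutive HSP70 of the cytosol. Its TSS (chromosome 9, 40609067, plus strand) held 452 tags for H3K9ac, 166 for 13HH3, 104 for 7G8 and 19 for input. The log2 ratios of 4.31 (3.65 to 5.05) for H3K9ac and 2.96 (2.28 to 3.73) for 13HH3 were the highest of the 10 genes, and that of 7G8 was 2.15 (1.43 to 2.94). The 2 kb upstream held the larger part of the tags, with 280, 100 and 57 tags in the ChIP libraries and 7 in input. Downstream there were 172, 66 and 47 tags, and 12 in input. Of the 36-base stretches, 95.25% upstream and 78.7% downstream occur once in the genome. Per kb of such unique positions the normalised tag count upstream and downstream was 63.4 and 47.1 for H3K9ac and 24.3 and 19.4 for 13HH3. It was 12.55 and 12.53 for 7G8, and 1.90 and 3.95 for input. In these windows of 2 kb the 7G8 level at Hspa8 lay below the 13HH3 level beyond counting error, by a log2 ratio of -0.82 (-1.18 to -0.45), as was the case at 11.2% of genes and at none of the other 9. With 1 kb on each side the ratio was -1.37 at Hspa8 and -1.25 at Hsp90ab1, where it was -0.29 (-0.69 to 0.11) in the larger window.

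Hspa5, whose product BiP folds proteins in the ER and holds the ER stress sensors inactive, held 315 tags for H3K9ac, 73 for 13HH3, 90 for 7G8 and 28 for input around its TSS (chromosome 2, 34627612, plus strand). Its log2 ratios were 3.23 (2.67 to 3.84), 1.22 (0.57 to 1.90) and 1.38 (0.75 to 2.05). Each of the 3 ChIP libraries was above input, and each ratio lay below the median of the 10 genes.

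Hspa1a and Hspa1b encode the heat-inducible HSP70 of the cytosol and had the fewest tags of the 10 genes. Hspa1a (chromosome 17, 35106144 to 35109069, minus strand) held 58 tags for H3K9ac, 16 for 13HH3, 40 for 7G8 and 15 for input. Hspa1b (chromosome 17, 35093381 to 35096183, minus strand) held 98, 23, 46 and 16 tags. In both genes 13HH3 was close to input, while H3K9ac and 7G8 were above it. The log2 ratios were 1.69 (0.85 to 2.61) for H3K9ac, -0.07 (-1.18 to 1.05) for 13HH3 and 1.11 (0.22 to 2.07) for 7G8 at Hspa1a. Those of Hspa1b were 2.35 (1.58 to 3.21), 0.36 (-0.62 to 1.38) and 1.22 (0.37 to 2.14). With the scaling by tags outside peaks on chromosome 17, 13HH3 was at 0.43 at Hspa1a and 0.86 at Hspa1b, both still under 2-fold, H3K9ac was at 2.30 and 2.96, and 7G8 was at 1.65 and 1.75.

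The counts of these copies rest on few positions. Only 11.4% of the 36-base stretches in the 2 kb downstream of the Hspa1a TSS, and 15.7% at Hspa1b, occur once in the genome, against 88.7% and 86.5% upstream. No tag of any library lay on a stretch that occurs more than once in the regions of the 10 genes, so the downstream part of both copies was nearly blind in all 4 libraries. Per kb of unique positions upstream, Hspa1a had a normalised tag count of 11.7 for H3K9ac, 2.87 for 13HH3, 7.80 for 7G8 and 3.79 for input, and Hspa1b had 19.2, 3.74, 8.97 and 4.49. The intervals of 13HH3 upstream (1.43 to 5.13 and 2.05 to 6.28) held the input level at both copies. The upstream log2 ratio of 13HH3 was -0.40 (-1.71 to 0.87) at Hspa1a and -0.26 (-1.42 to 0.89) at Hspa1b, and its sign depended on the scaling, as it was 0.10 (-1.21 to 1.37) and 0.24 (-0.92 to 1.39) with the tags outside peaks on chromosome 17. On the few unique positions downstream there were 5 tags of 13HH3 and 2 of input at Hspa1a, and 9 and 1 at Hspa1b. The downstream log2 ratio of 13HH3 was 1.16 (-1.45 to 4.55) at Hspa1a and 3.01 (0.16 to 8.46) at Hspa1b, the latter above input beyond its interval. Hspa1l, a testis-expressed HSP70 gene, starts 579 bases from Hspa1a, and its window, which shares tags with that of Hspa1a, had log2 ratios of 1.37 for H3K9ac, -0.40 for 13HH3 and 0.70 for 7G8. The scaling by tags outside peaks on chromosome 17 adds 0.50 for 13HH3 and 0.53 for 7G8. With it the 13HH3 ratio of Hspa1l would change sign and that of 7G8 would pass 2-fold. By the library total their intervals were -1.42 to 0.61 and -0.11 to 1.55, so both changes are within counting error.

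Hsph1 encodes HSP110, a nucleotide exchange factor for HSP70 that takes part in dissolving aggregates. Within 2 kb of its TSS (chromosome 5, 150438746, minus strand) it held 201 tags for H3K9ac, 43 for 13HH3, 51 for 7G8 and 32 for input. H3K9ac was above input with a log2 ratio of 2.39 (1.84 to 2.97). Neither H3K14ac library was above input beyond counting error, with 0.26 (-0.43 to 0.97) for 13HH3 and 0.37 (-0.30 to 1.05) for 7G8. Unlike at Hspa1a and Hspa1b, 94.8% of positions in this window are unique, and the H3K14ac ratios of Hsph1 lay near the medians of all genes.

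Ordered by the H3K9ac ratio, the genes ran from Hspa8 through Hspa9, Hsp90aa1, Hspe1, Hspd1, Hsp90ab1, Hspa5, Hsph1 and Hspa1b to Hspa1a. Of the neighbours compared in this order, Hspa5 and Hsph1 alone differed beyond their counting intervals, by 0.84 (0.01 to 1.67) on the log2 scale. This call was lost when each gene was scaled by the tags outside peaks of its own chromosome, where the difference was 0.64 (-0.19 to 1.47). Hspe1 and Hspd1 could not be compared because they share tags. The first and the last gene differed by 2.62 (1.45 to 3.76), and by 2.41 with the scaling by chromosome. Neighbours and ends were set in each library by the same values that are compared. These differences, here and below, are therefore descriptions, and the intervals do not allow for the choice. With 13HH3 none of the compared neighbours differed beyond their intervals, and Hspa8 and Hspa1a at the ends differed by 3.03 (1.67 to 4.37). With the scaling by chromosome Hsp90ab1 and Hspa5 differed, by 0.92 (0.02 to 1.81). They are neighbours in the 13HH3 order by library total, and the genes were not ordered anew for the other scaling. With 7G8 none of the neighbours compared in the order by library total differed under either scaling. The ends of that order, Hspa9 and Hsph1, differed by 1.99 (1.07 to 2.90). Scaled by chromosome, the same end genes differed by 2.75 with 13HH3 and by 1.69 with 7G8.

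Enriched regions (peaks) were called from windows of 400 bases with more tags than a local input rate, at a Poisson threshold of 1e-05. All 10 start sites had an H3K9ac peak in their 2 kb windows, against 65.1% of all genes, while 7 had a 13HH3 peak (28.2%) and 8 a 7G8 peak (25.1%). No 13HH3 peak was called at Hspa1a, Hspa1b or Hsph1, and no 7G8 peak at Hspa1a or Hsph1. At a threshold of 1e-10 the numbers were 9 for H3K9ac (56% of all genes), 6 for 13HH3 (8.48%) and 3 for 7G8 (5.96%), the last at Hsp90ab1, Hspa5 and Hspa9. The H3K9ac peak was 5450 bases wide across Hspd1 and Hspe1, 5950 at Hsp90ab1, 5400 at Hspa8, 6000 at Hspa9, 3400 at Hsph1 and 3000 at Hspa5. It was 1400 bases wide at Hspa1b and 650 at Hspa1a, the copies with few unique positions downstream of the TSS.

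At these genes the called peaks of H3K14ac were narrower than those of H3K9ac. At a fixed threshold the called width also depends on how strongly a library is enriched. Over the genome peaks held 20.2% of tags for H3K9ac, 6.2% for 13HH3 and 2.8% for 7G8. The widths therefore do not give the extent of each mark. A 13HH3 peak covered the TSS at 6 of the 7 genes with such a peak, from -32 to 867 bases relative to the TSS at Hspd1, -25 to 574 at Hspe1, -180 to 769 at Hsp90ab1, -95 to 804 at Hsp90aa1 and -111 to 488 at Hspa5. The share of all genes with a peak over the TSS is not given. Peaks were joined from windows of 400 bases, so their edges do not show signal at the TSS itself. The 200 bases centred on the TSS held 2 tags of 13HH3 at Hspd1, 2 at Hsp90ab1 and 0 at Hsp90aa1. For 7G8 they held 0, 1 and 0. At Hspa8 the 13HH3 peaks ended 17 bases before the TSS and began 134 bases after it. Further 13HH3 peaks lay beside the TSS at Hspd1 (-682 to -83), Hspe1 (-975 to -76), Hsp90aa1 (-1045 to -246) and Hspa5 (-761 to -362 and 1889 to 2538), and those of Hspd1 and Hspe1 are the same pair of peaks. Peaks of 7G8 left a gap over the TSS of Hspd1, Hspe1, Hspa8 and Hspa5, at the last from -212 to 139. They lay only upstream at Hsp90ab1 (-1630 to -831), Hsp90aa1 (-1295 to -246 and -2445 to -1896) and Hspa1b (-667 to -268). Within 500 bases of the TSS 7 genes had a 7G8 peak, and Hsp90ab1 was not among them. The share of all genes is not given for this distance. At Hspa9 a single peak of 2800 bases with 13HH3 and 2950 bases with 7G8 crossed the start site.

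In bins of 200 bases the highest bin of each ChIP library lay upstream or downstream of the bin at the TSS. At Hsp90aa1 the bin at the TSS held 4 tags for H3K9ac and none for 13HH3 or 7G8, while the highest bin upstream held 38, 15 and 9 tags and the highest downstream 29, 21 and 8. At Hspa8 the bin at the TSS held 12, 3 and 2 tags, against 51 at the highest bin of H3K9ac, 25 of 13HH3 and 12 of 7G8. The bins directly beside the TSS of Hspa8 were also low, with 6 and 7 tags for H3K9ac, 4 and 1 for 13HH3 and 4 and 5 for 7G8. The highest bins were picked after their values were seen, so these differences are descriptions. At Hsph1 the H3K9ac bins were close to each other, with 18 tags at the TSS and 20 and 21 in the highest bins on either side.

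**Figure D3:**
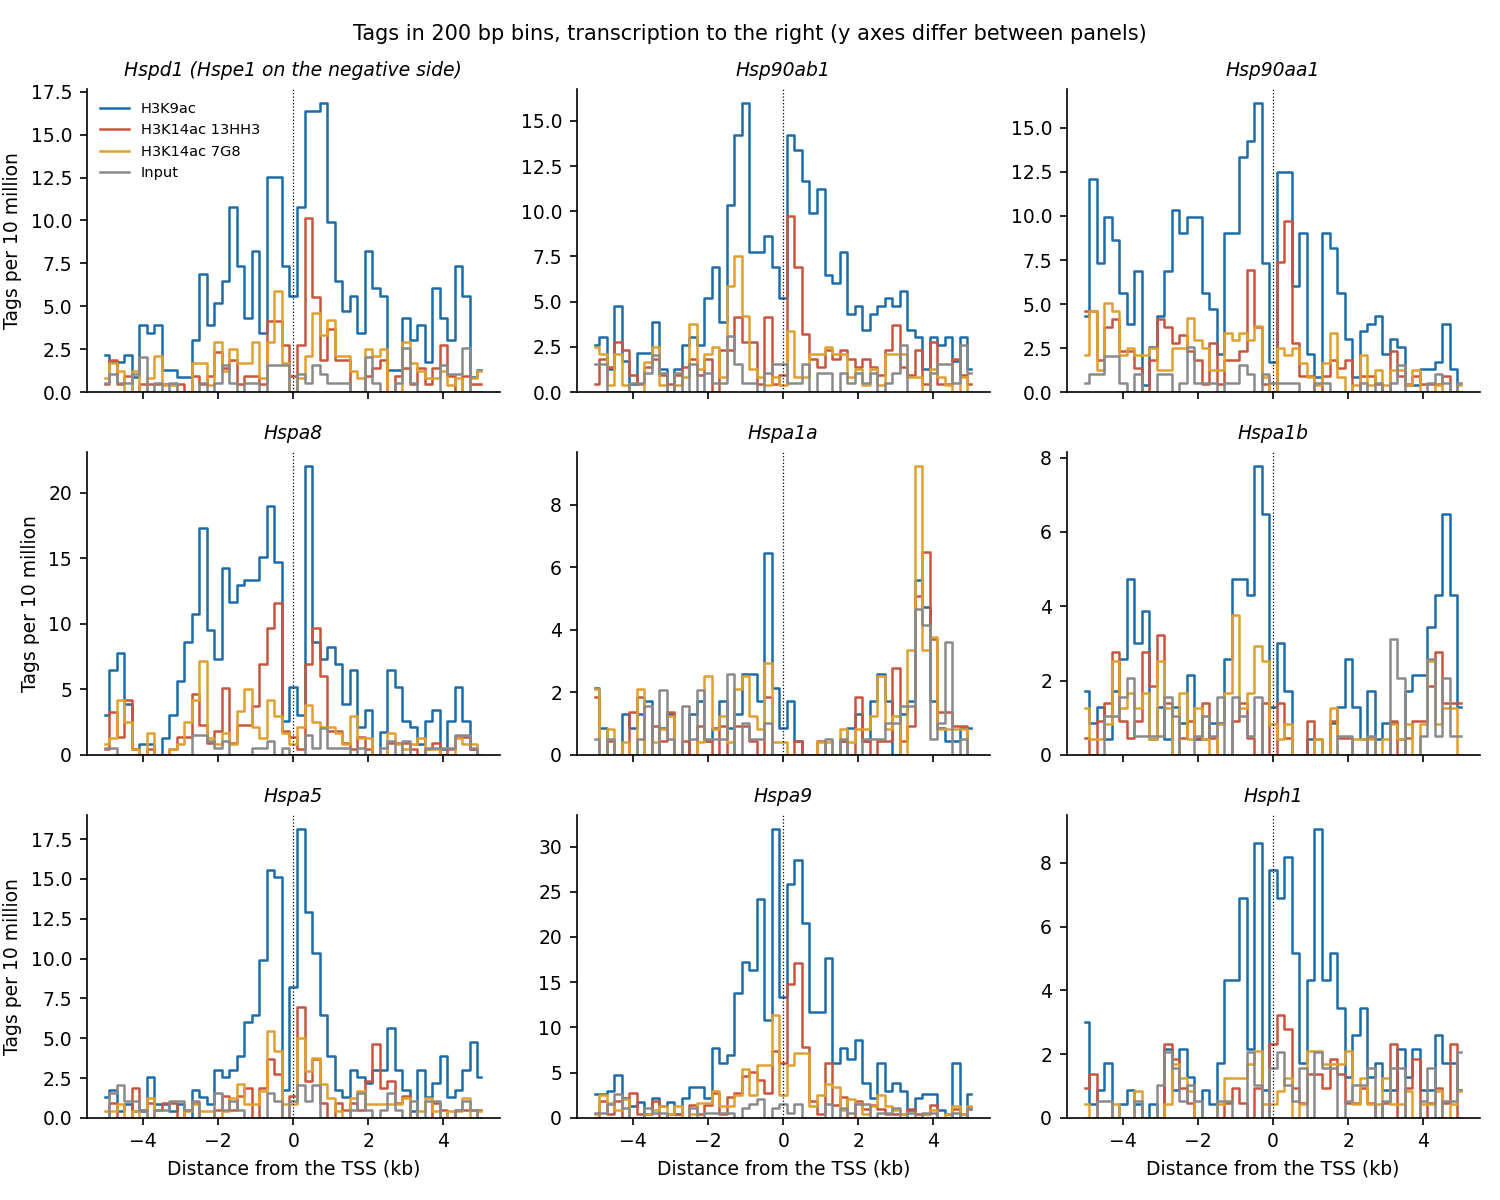
Normalised tag count (tags per 10000000) in 200 bp bins (y axis, scales differ between panels) against the distance from the TSS in kb (x axis), with transcription to the right and the dotted line at the TSS, for 9 of the 10 genes, as Hspe1 shares the panel of Hspd1. The highest bin of each ChIP library within 2 kb lies beside the bin at the TSS, and Hspa1a and Hspa1b have few tags in the 2 kb downstream in any library.

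The sides of the TSS were compared as the ratio over input upstream minus that downstream. The medians of the 10 genes on the log2 scale were -0.40 for H3K9ac, -0.98 for 13HH3 and -0.04 for 7G8, and those of all genes were -0.21, -0.25 and -0.02. Without the tag shift the medians of the 10 genes were -0.21, -1.03 and 0.12. With 1 kb on each side, where Hspa1a and Hspa1b lacked tags on a side, they were -0.07, -0.91 and -0.12. The medians of all genes were not computed anew for these settings. The intervals of single genes were wide, since input had few tags on each side. For 13HH3 Hsp90aa1 had more on the downstream side (46 tags upstream and 59 downstream, input 13 and 5), with a difference of -1.74 (-3.67 to -0.02). At Hspa1b the 13HH3 difference was -3.27 (-8.81 to -0.05), but it rests on 1 input tag downstream, where most positions are not unique. Hspa8 pointed the other way, with a difference of 1.48 (-0.02 to 3.09) for H3K9ac that is within its counting error. The 2 kb downstream of Hspd1 and the 2 kb upstream of Hspe1 are largely the same bases, so that opposite signs at these genes, -0.76 for Hspd1 and 1.10 for Hspe1 with 13HH3, describe 1 pattern. There, 60 of the 13HH3 tags lay on the side of the Hspd1 gene and 41 on the side of Hspe1.

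Over the whole gene body, from the TSS to the annotated end, the median log2 ratio over input was 2.74 for H3K9ac, 1.27 for 13HH3 and 1.13 for 7G8, against 0.45, 0.10 and -0.02 for all genes. The interval lay above 0 at all 10 genes for H3K9ac (56.4% of all genes), at 7 for 13HH3 (30.1%) and at 7 for 7G8 (19.9%). With the scaling by chromosome more intervals of chromosome 17 genes would lie above 0. By the library total these were 1.71 (-0.21 to 4.19) for 13HH3 and 1.70 (-0.19 to 4.16) for 7G8 at Hspa1b. The other was 0.48 (-0.07 to 1.03) for 7G8 at Hsp90ab1. These bodies run from 2803 bases at Hspa1b to 21885 at Hsph1, so the first 2 kb are most of the shortest and a small part of the longest. Beyond 2 kb into the gene the median was 2.11 for H3K9ac, with all 10 intervals above 0 (47.7% of all genes). This part was 803 bases long at Hspa1b and 19885 at Hsph1, and its length was not matched to that of all genes. Some H3K9ac peaks at the TSS reached into it, to 2717 bases from the TSS at Hspd1, 3569 at Hsp90ab1 and 3360 at Hspa9. At Hsph1, with the longest such part, the H3K9ac ratio was 0.48, which was higher than that of 61.2% of genes. The median beyond 2 kb was 0.18 for 13HH3, with 2 intervals above 0 (25.3%), and 0.30 for 7G8, with 0 above 0 (16.3%). The medians of all genes were 0.26 for H3K9ac, 0.01 for 13HH3 and -0.12 for 7G8. With the scaling by chromosome the 7G8 interval of Hspa1a, 1.37 (-0.14 to 3.18) by the library total, would also lie above 0. The shares of all genes rest on genes with at least 10 tags in ChIP and input together, whereas Hspa1b had 4 tags for 13HH3 and 5 for 7G8 beyond 2 kb, and Hspe1 had 9 for 13HH3. Without these values, 2 of 8 intervals lay above 0 for 13HH3 and 0 of 9 for 7G8, and the medians were 0.18 and 0.32.

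Among the genes with H3K14ac peaks Hspa9 has the longest body. Beyond 2 kb it held 441 tags for H3K9ac, 106 for 13HH3, 148 for 7G8 and 96 for input over 14944 bases. H3K9ac was still above input, with a log2 ratio of 1.94 (1.61 to 2.27), while 13HH3 was at -0.02 (-0.43 to 0.39) and 7G8 at 0.32 (-0.06 to 0.71). At Hspd1 the values beyond 2 kb were 249, 70, 84 and 61 tags, with log2 ratios of 1.77 (1.36 to 2.19), 0.04 (-0.48 to 0.55) and 0.16 (-0.33 to 0.66). The 13HH3 intervals above 0 beyond 2 kb were those of Hsp90ab1, at 0.69 (0.03 to 1.37), and Hspa5, at 1.11 (0.10 to 2.22). At Hspa5 a 13HH3 peak of 650 bases lay 1889 to 2538 bases into the gene.

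Hsph1 had the lowest body values of the 10 genes. Its body of 21885 bases held 505 tags for H3K9ac, 250 for 13HH3, 220 for 7G8 and 249 for input. H3K9ac was above input by a log2 ratio of 0.76 (0.53 to 0.98), 13HH3 did not differ from input beyond counting error, at -0.16 (-0.42 to 0.10), and 7G8 was below input, at -0.48 (-0.75 to -0.21). These values depended on the scaling. With the tags outside peaks on chromosome 5 they were 1.04 for H3K9ac, -0.0046 for 13HH3 and -0.31 for 7G8.

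**Figure D4:**
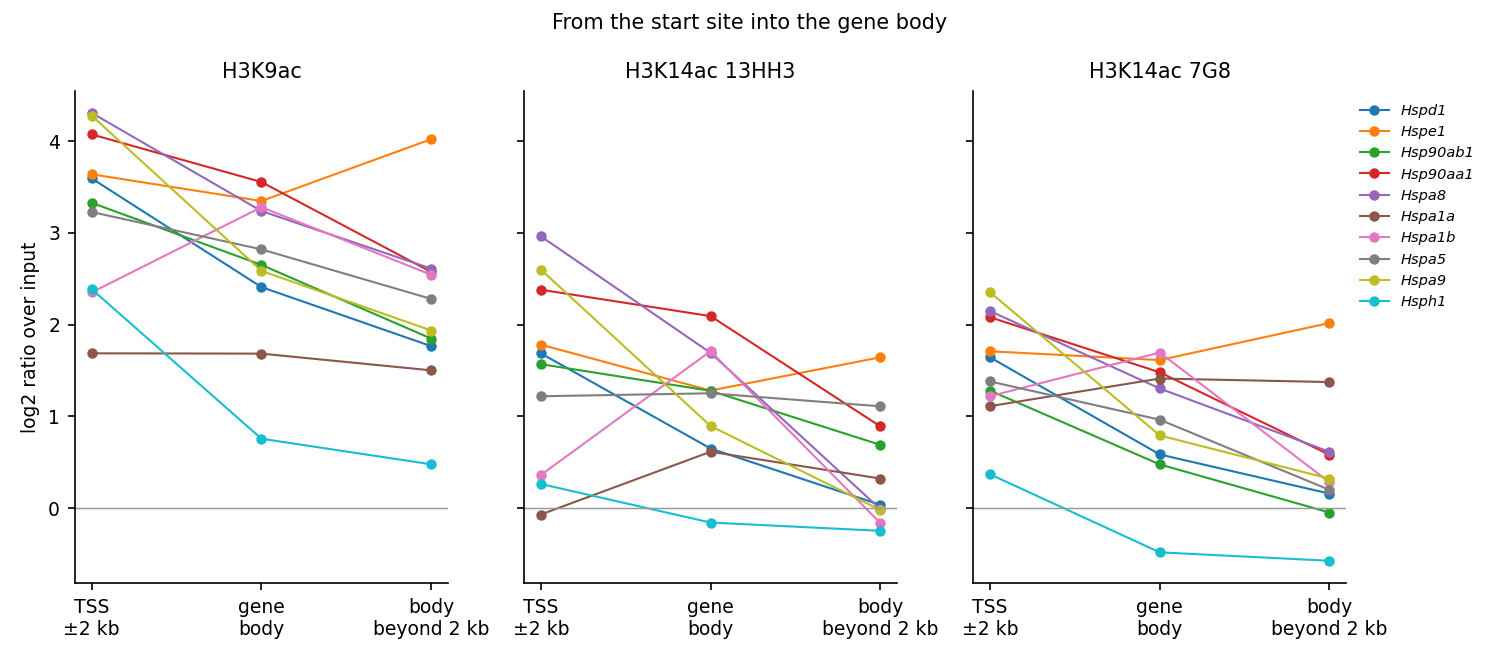
Log2 ratio over input (y axis) within 2 kb of the TSS, over the gene body and over the body beyond 2 kb, with 1 line per gene and 1 panel per ChIP library. Beyond 2 kb the H3K9ac values stay above 0 for all 10 genes, with a median of 2.11, while the medians of 13HH3 and 7G8 are 0.18 and 0.30. The values of Hspe1 and Hspa1b beyond 2 kb rest on 2 input tags each.

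The marks were also compared directly, as tags of one ChIP library over another within 2 kb of the TSS, where the level of input cancels. Such a ratio depends on how well each antibody works and does not give the share of histones that carry a mark. The 13HH3 level was below the H3K9ac level at all 10 genes beyond counting error (62.6% of all genes), with a median log2 ratio of -1.81 against -0.92 for all genes. The values ran from -1.34 (-1.61 to -1.09) at Hspa8 to -2.12 (-2.64 to -1.64) at Hsph1. The ends of this range depended on the choices made, as Hsp90aa1 was at -0.96 at its upstream start and Hspa1a at -2.71 with 1 kb on each side. Hspa8 itself was at -0.89 with 1 kb on each side and at -1.07 with repeated 13HH3 tags kept. The 7G8 level was below H3K9ac at 9 genes (67% of all genes), with a median of -1.94 against -1.07. The exception was Hspa1a, at -0.58 (-1.20 to 0.03), and this depended on the window, as the ratio was -1.26 with 1 kb on each side.

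The median log2 ratio of 7G8 to 13HH3, the antibodies against H3K14ac, was -0.06, against -0.01 for all genes. It was -0.41 with 1 kb on each side and -0.25 without Hspe1, Hspa1a and Hspa1b. The intervals of 7 genes included 0, and Hspa8 had less 7G8 than 13HH3, at -0.82 (-1.18 to -0.45). Hspa1a, at 1.18 (0.31 to 2.12), and Hspa1b, at 0.86 (0.11 to 1.65), had more 7G8 than 13HH3, as did 8.48% of all genes. These are the copies with the fewest tags, and Hspa1a rests on 40 tags for 7G8 and 16 for 13HH3. The scaling by tags outside peaks of chromosome 17 left these values at 1.22 and 0.89.

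The 10 promoters were rich in CpG. The 1 kb around the TSS held 74 CpGs at Hsp90ab1, the lowest of the 10, and 125 at Hsp90aa1, the highest, against a median of 41 over all promoters. Hspd1 and Hspe1 had 121 each and Hspa8 85. Hspa1a, Hspa1b and Hsph1, which were under 2-fold with 13HH3, had 78, 79 and 77 CpGs, close to the 80 of Hspa5 and the 82 of Hspa9, which were above it. A GC box (GGGCGG) was found in all 10 promoters, against 44.7% of all promoters, and a CCAAT box in 7, against 37.6%. The letters TATAAA were in none of these windows, against 13.4% of all promoters. Other forms of a TATA box were not searched, and the Hspa5 stretch printed above holds the letters tatataa. Hsp90ab1 held a cAMP response element (TGACGTCA), as did 2.33% of promoters. The 4 promoters with a run of 3 heat shock units were on both sides of the order given above, with H3K9ac log2 ratios from 2.39 at Hsph1 to 4.07 at Hsp90aa1.

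Other chaperone and heat shock genes were taken from 8 lists of 60 genes, which have 61 entries in the annotation. Of these 61, 54 reached 2-fold over input for H3K9ac, 27 with 13HH3 and 35 with 7G8 (88.5%, 44.3% and 57.4% of the entries, against 57.4%, 16.6% and 16.8% of all genes), and their median log2 ratios were 2.81, 0.81 and 1.19. The 8 genes of the cytosolic chaperonin CCT, which folds actin and tubulin, were all called for H3K9ac and 13HH3, and 7 were with 7G8. Within CCT the H3K9ac ratio ran from 2.91 at Cct7 to 3.76 at Cct3. Of 17 cochaperones of HSP70 and HSP90, 17 were called for H3K9ac, 7 with 13HH3 and 9 with 7G8, from Bag3 (1.71 for H3K9ac) to St13 (4.20).

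Of 12 genes for folding and stress in the ER, 11 were called for H3K9ac, 5 with 13HH3 and 10 with 7G8 (91.7%, 41.7% and 83.3%, against 57.4%, 16.6% and 16.8% of all genes). The lowest was Serpinh1, a chaperone of collagen, with 0.82 for H3K9ac, and the highest Pdia3, a disulfide isomerase, with 3.49. The other HSP70 genes were called in 5 of 7 entries for H3K9ac, 3 with 13HH3 and 4 with 7G8 (71.4%, 42.9% and 57.1%, against the same shares of all genes). Hspa14 is annotated as a pair of entries with starts at 3430031 and 3430086 on chromosome 2, which share nearly all tags and are counted as separate calls in each library. The H3K9ac ratios of these entries ran from Hspa12b (0.60) to Hspa14 (3.26). The HSP110 relatives Hspa4, Hspa4l and Hyou1 had H3K9ac ratios of 3.49, 2.22 and 3.34, and 13HH3 ratios of 1.59, 0.66 and 1.13. Hsp90b1 and Trap1, the HSP90 genes of the ER and of mitochondria, had 3.68 and 2.48 for H3K9ac, and 1.75 and 0.75 with 13HH3.

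Of 9 small heat shock protein genes, which hold unfolded proteins without ATP, 5 were called for H3K9ac, 1 with 13HH3 and 0 with 7G8 (55.6%, 11.1% and 0%, against 57.4%, 16.6% and 16.8% of all genes), from Hspb7 (0.21 for H3K9ac) to Hspb9 (2.79). The factors Hsf1, Hsf2 and Hsf4 were all called for H3K9ac, with 2.12, 2.20 and 2.08, and none was for H3K14ac, with 0.15, 0.22 and 0.57 for 13HH3 and 0.60, 0.73 and 0.79 for 7G8.

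**Figure D5:**
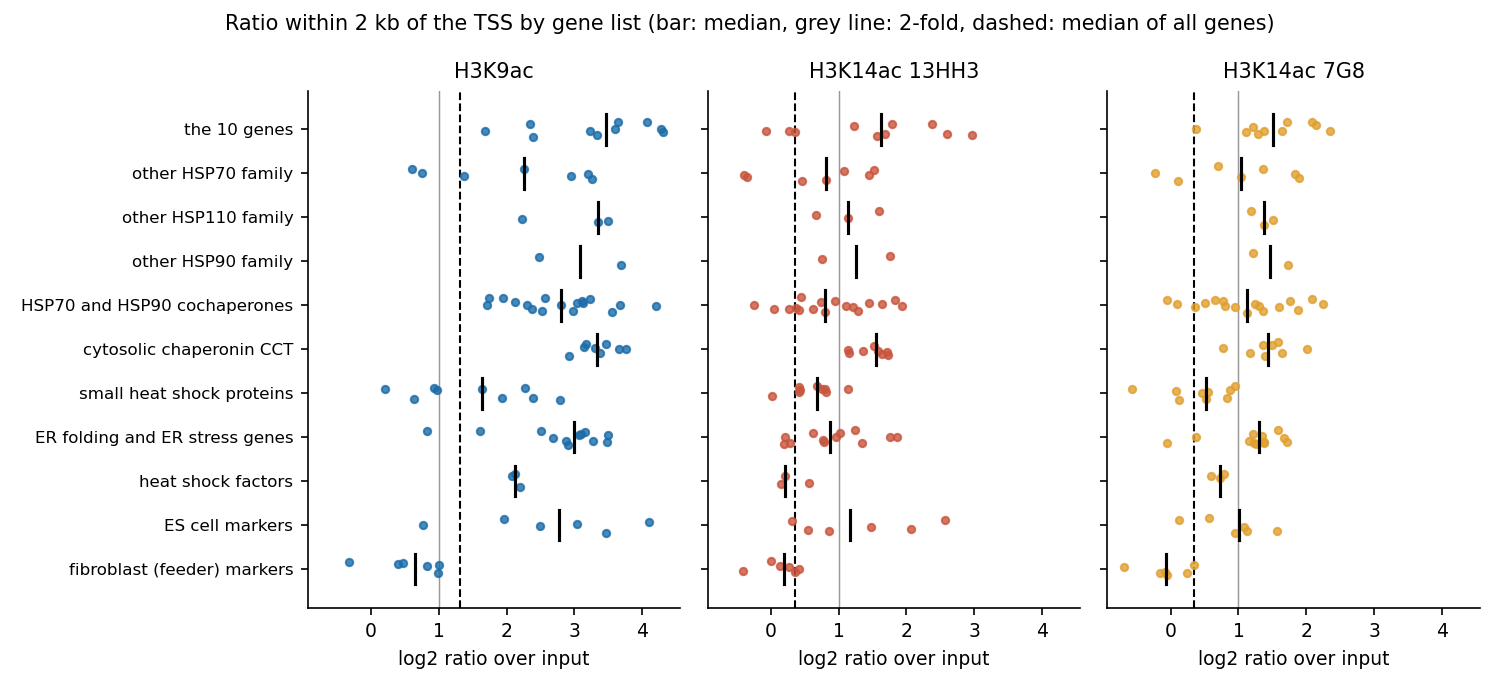
Log2 ratio over input within 2 kb of the TSS (x axis) for the 10 genes, the other chaperone lists and the cell type marker lists (rows), with 1 dot per gene, a bar at the median, a grey line at 2-fold and a dashed line at the median of all genes. CCT lies together with most of the 10 genes in each library, while the small heat shock proteins have medians of 1.63 for H3K9ac, 0.68 for 13HH3 and 0.52 for 7G8.

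The genes outside these lists whose 3 ratios lay nearest to the medians of the 10 were Tlk1, 1810009A15Rik and Phip, by the Euclidean distance over the log2 ratios of the 3 ChIP libraries among 21135 genes. Tlk1 held 237 tags for H3K9ac, 61 for 13HH3, 63 for 7G8 and 18 for input, at a distance of 0.0328. Phip held 191, 51, 52 and 15 tags, at a distance of 0.0645.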

How the data were processed

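ChIP-seq reads of the 4 libraries were aligned by the authors with ELAND to mm9, allowing 1 mismatch, and the deposited files list 1 mapped read (tag) of 36 bases per line, with a score column that counts 1 on every line. Repeated positions were absent in 3 libraries and were counted once in 13HH3. Tags were placed at their 5′ ends, shifted 100 bp in the direction of the read. Each gene had 1 TSS, that of its longest coding sequence. Peaks followed the local Poisson rate of MACS (400 bp windows, rate from 1, 5 and 10 kb of input), which itself was not run. Genome sequence and annotation were of the same build, and positions in the genome were counted from 1.

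Genes entered a comparison with at least 10 tags in ChIP and input together, except that the 10 genes were kept throughout. Called means 2-fold or more where no interval is named. Intervals were exact (conditional binomial for ratios, conditional odds ratio for sides). No p-value was computed, and with 1 library per antibody no replicate error can be given. Counts, intervals and the peak caller were tested on simulated data. The 10 genes, the lists and the motifs were chosen with earlier results of these data known. Named are all 10 genes, the highest and lowest of each list for H3K9ac (all where a list has 3 or fewer), neighbours within 2 kb and the 3 nearest genes. Alternatives were tried for tag shift, repeats, TSS, unique positions, window, scaling and peak threshold. Calculations used pandas 2.3.3, scipy 1.17.1 and numpy 2.4.6 in Python 3.11.15, with figures from matplotlib 3.10.9.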

Additional observations from a re-analysis of the deposited data

How the results depend on the processing

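Under the alternatives for tag shift, repeats, TSS, 1 kb window and scaling, the counts of genes called or with a peak stayed within 1.5 times. The medians of the 10 genes moved by less than a margin set from the intervals of single genes. That margin is wide for the sides of the TSS, where the H3K9ac median went from -0.40 to -0.07 with 1 kb. Counting only unique positions could change nothing, as no tag lay on a repeated stretch, and repeats were present only in 13HH3. Leaving out Hspe1, Hspa1a and Hspa1b was a choice made after the data were seen. Of the genes then left, 7 were called for H3K9ac, 6 with 13HH3 and 6 with 7G8. Larger changes were seen in the number of genes with a 7G8 peak, which was 3 at a threshold of 1e-10. They were also seen in the medians over the gene body, which were 0.18 for 13HH3 and 0.30 for 7G8 beyond 2 kb. Over the genes with 10 tags or more these were 0.18 and 0.32. The H3K9ac body ratio of Hsph1 was 1.03 when scaled by tags outside peaks. Beyond 2 kb the 13HH3 value changed sign at Hspa8, to -0.0112, and at Hspa9, to -0.0202. These follow from leaving out the tags near the TSS. At 1 kb the sides could not be compared at Hspa1a and Hspa1b, which lacked tags on a side. With 1 kb on each side the 7G8 to 13HH3 ratio of Hsp90ab1 was -1.25. With the most 5′ start the H3K9ac ratio of Hsp90aa1 was 3.10. No paired analysis was possible because each antibody has 1 library. Input depth limits the ratios, with 15 to 34 input tags in the windows of the 10 genes.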

Other observations

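Beyond the annotated end of Hspa1a, in the 200 bp bin centred 3600 bases from its TSS, tags rose in all 4 libraries, with 13 for H3K9ac, 11 for 13HH3, 22 for 7G8 and 9 for input. The bin at 3400 bases held 4, 2, 8 and 3 tags. Upstream of Hspa8, the bin centred at -2400 bases held 40 tags for H3K9ac and 17 for 7G8, against 5 for 13HH3 and 3 for input, while the bin at -2600 held 25, 10, 10 and 3 tags for H3K9ac, 7G8, 13HH3 and input. Both were noticed in the profiles, and the cause was not tested.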
